A study of Mus musculus with 6 samples.

Results

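The 9 genes described here are 4 inhibitors of differentiation (Id1, Id2, Id3 and Id4), 3 receptors for bone morphogenetic proteins (Bmpr1a, Bmpr1b and Bmpr2) and a pair of SMAD genes of the same pathway (Smad6 and Smad9). They were taken by gene symbol from a table of 24421 symbols, all 9 had enough reads to be tested, and 15988 genes were tested in all. After neomycin, Id1, Id2 and Id3 rose by 1.24-fold to 1.34-fold, whereas Id4, the 3 receptors and both SMAD genes did not pass the test. With a correction for exon length, described further on, Id2 still passed and Id1 and Id3 did not.

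RNA was sequenced from cultured cochleae of wild-type mice at postnatal day 2. The cochleae were kept in culture for 12 h, and the neomycin group received 1 mM neomycin for 6 h. Culture then went on for 5 days with 10 μM EdU, a label for dividing cells, according to a protocol text shared by both groups. Neomycin is an aminoglycoside antibiotic that kills hair cells (HCs), the sensory cells of the inner ear. The 3 control samples and the 3 neomycin samples were pools, with 6 to 8 cochleae in each. The treatment field of the labels separates the groups, although the protocol text is the same for all 6 samples. The labels do not say whether the pools came from separate litters or culture days, so the p-values measure the spread between these pools. A pool holds HCs, supporting cells (SCs), mesenchyme, nerve, vessel and immune cells, and in such bulk RNA fewer cells of a type and less RNA per cell cannot be told apart.

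Bone morphogenetic proteins (BMPs) are secreted ligands that bring together type I receptors, such as those encoded by Bmpr1a and Bmpr1b, and type II receptors, such as that encoded by Bmpr2. The type I receptors phosphorylate the receptor-regulated SMADs, which enter the nucleus with SMAD4 and switch on target genes. Id genes are classical targets of this signal: they encode helix-loop-helix proteins without a DNA-binding region, which bind E proteins and keep them from pairing with tissue-specific bHLH factors. In the developing cochlea, Id proteins are known for holding back ATOH1, the bHLH factor needed to make HCs.

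The promoters of the Id genes are shown because BMP-activated SMADs are known to bind a GC-rich element, GGCGCC, in Id promoters. RefSeq promoter windows of build GRCm38.p6, the same assembly as the mm10 genome of the counts, were found for 8 of the 9 genes; Id1 was not among them. In the 250 bases before the RefSeq start of transcription, GGCGCC was found in Id2, Id4, Bmpr1a, Bmpr2 and Smad9. It reads the same on both strands, and it was not found in Id3, Smad6 or any of the 3 windows of Bmpr1b. Of all 32526 windows of that length, 9.65% held it. The windows of Id2, Id3, Bmpr1a, Bmpr1b and Bmpr2 lie inside the longest extent of the gene in the GENCODE annotation. A match is a description of the letters and not of a bound site. Of the Id genes with a match, Id2 rose and Id4 did not pass the test, so their non-exonic stretches are printed together, 5′ to 3′ on the strand of the gene, with GGCGCC in capitals. The Id2 stretch is 89 bases on the minus strand at chr12:25096254-25096342, intronic in the longest extent of the gene in the GENCODE annotation. The Id4 stretch is 250 bases on the plus strand at chr13:48260866-48261115, upstream of the first exon.
Id2: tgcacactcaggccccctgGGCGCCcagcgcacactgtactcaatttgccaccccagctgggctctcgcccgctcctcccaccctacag
Id4: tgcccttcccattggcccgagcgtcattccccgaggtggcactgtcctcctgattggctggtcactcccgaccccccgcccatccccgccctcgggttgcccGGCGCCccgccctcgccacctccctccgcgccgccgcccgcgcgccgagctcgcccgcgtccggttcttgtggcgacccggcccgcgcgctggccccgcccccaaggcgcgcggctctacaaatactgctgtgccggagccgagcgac

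The other motifs searched on both strands were CAGAC, a SMAD-binding element, and CANNTG, the E-box that bHLH factors bind, and none of their matches overlapped one of the GC-rich element. The motif CAGAC was found 2 times in the Id3 window, at 167 and 68 bases before the start, and not in those of Id2 or Id4. CANNTG was found 1 time in the Id2 window and not in those of Id3 or Id4. These motifs are common, with CAGAC in 42.2% and CANNTG in 66.2% of all windows.

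Total counts ran from 50471116 to 66068108 per sample. Levels are given as CPM, counts scaled with the TMM method to a common library size, and the differences are log2 fold changes of neomycin against control with their standard error (SE). They were tested with the quasi-likelihood test of edgeR and Benjamini-Hochberg adjustment over all 15988 genes. A gene passed the test at an adjusted p under 0.05, and it was called differentially expressed if the fold change was also over 1.5. The counts of the 9 genes ran from 208 for Smad9 to 19039 for Id3 in a sample, so Smad9 carries the largest counting error.

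Of the 9 genes, 3 passed the test, where 29.0% of all genes did. All 3 were higher and 0 fell, beside 12.9% of all genes higher and 16.1% lower by the same rule. None of the 9 reached the fold threshold, which 8.84% of all genes passed, 2.24% higher and 6.60% lower. At an unadjusted p under 0.05 there were 4 of 9, against 41.0% of all genes. The groups did not overlap for 4 of 9 genes, against 43.5% of all genes: 3 were higher after neomycin, beside 21.0% of all genes, and 1 was lower, beside 22.5%. Taken in either direction, these shares lie near the background of the series. By role, the 4 Id genes had a median difference of 0.32 on the log2 scale, the 3 receptors one of -0.17 and the 2 SMAD genes one of -0.04, beside -0.004 for all genes tested.

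**Figure D1:**
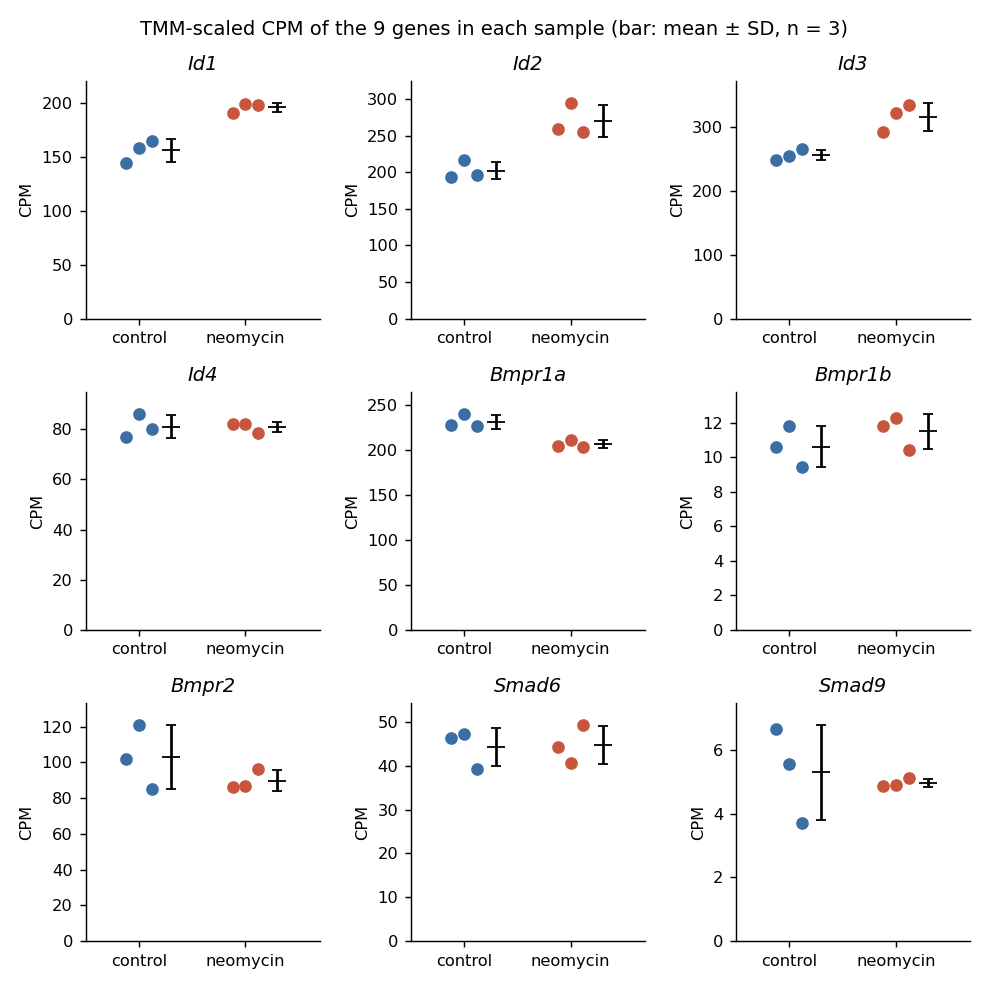
TMM-scaled CPM (y axis, from 0) of each of the 9 genes in the 3 control and 3 neomycin samples (points), with the mean ± SD beside them. The neomycin points lie above all control points for Id1, Id2 and Id3 and below them for Bmpr1a, and the groups overlap for the other genes.

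Id2, at chr12:25093799-25097140 on the minus strand, showed the largest difference of the 9 genes and is known in the cochlea for being expressed in the prosensory region before HCs form. Its level was 194, 216 and 196 CPM in control samples 1, 2 and 3, and 259, 295 and 255 CPM in neomycin samples 1, 2 and 3. The lowest neomycin sample was above the highest control sample. The mean rose from 202 ± 11.8 to 270 ± 21.9 CPM (SD, n = 3 each), a log2 fold change of 0.42 (SE 0.08, 95% interval 0.24 to 0.60, adjusted p = 0.00324, edgeR).

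Id1, at chr2:152736251-152737410 on the plus strand, is among the most direct BMP targets and is also known from endothelium. Its level was 144, 158 and 165 CPM in control samples 1, 2 and 3 and 191, 199 and 198 CPM in the neomycin samples. The groups did not overlap, and the 3 neomycin samples lay closer together than the controls. The mean rose from 156 ± 10.6 to 196 ± 4.29 CPM (SD, n = 3 each), a log2 fold change of 0.33 (SE 0.07, 95% interval 0.17 to 0.49, adjusted p = 0.00645, edgeR). With the correction for exon length described further on, it was 0.03 and did not pass (adjusted p = 0.814, edgeR).

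Id3, at chr4:136143497-136145755 on the plus strand, is often expressed together with Id1. Its level was 249, 256 and 266 CPM in the control samples and 293, 323 and 336 CPM in the neomycin samples, again without overlap. The mean rose from 257 ± 8.43 to 317 ± 22 CPM (SD, n = 3 each), a log2 fold change of 0.30 (SE 0.08, 95% interval 0.14 to 0.47, adjusted p = 0.0126, edgeR). Id3 did not pass when control sample 2, neomycin sample 2 or neomycin sample 3 was left out. The adjusted p was then 0.052, 0.0664 and 0.0651 (edgeR), at log2 fold changes of 0.31, 0.29 and 0.26. With the correction for exon length described further on, the log2 fold change was 0.09 and did not pass (adjusted p = 0.306, edgeR).

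Id4, at chr13:48261228-48266026 on the plus strand, gave no difference that passed the test. Its level was 76.9, 86.2 and 80.3 CPM in control and 82.2, 82.0 and 78.4 CPM after neomycin, and every neomycin sample lay within the range of the controls. The mean was 81.1 ± 4.74 CPM in control and 80.9 ± 2.16 CPM after neomycin (SD, n = 3 each), a fold of 0.997 with a 95% interval of 0.897 to 1.11 (adjusted p = 0.973, edgeR). The annotation places A330033J07Rik and Gm49291 on the opposite strand with 82 and 171 shared exonic bases, and their reads cannot be told apart from those of Id4 if the counting ignored strand.

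The ratio of an Id gene to Id4 in the same sample needs no library scaling, but exon lengths differ between the genes and length moved with the fold change, as described further on. The number of Id2 counts per Id4 count was 2.53, 2.50 and 2.44 in control and 3.15, 3.60 and 3.26 after neomycin, an increase of 1.34-fold. Id1 counts per Id4 count were 1.88, 1.83 and 2.06 in control and 2.32, 2.42 and 2.52 after neomycin. Id3 counts per Id4 count were 3.24, 2.97 and 3.31 in control and 3.56, 3.93 and 4.28 after neomycin. None of these 3 ratios overlapped between the groups. With the length correction, the log2 fold changes were 0.28 for Id2, 0.03 for Id1, 0.09 for Id3 and -0.03 for Id4, so Id1 and Id3 then lay closer to Id4. Each of the 3 count ratios, which carry no length correction, gave p = 0.1 in an exact two-sided permutation test. This is the smallest p that 3 samples against 3 allow, and it was 0.175 after Benjamini-Hochberg adjustment over the 7 ratios tested. The ratio of Id2 to Id3 was 0.787 ± 0.0519 in control and 0.853 ± 0.0818 after neomycin (SD, n = 3 each), and the groups overlapped (exact two-sided permutation test, p = 0.3, adjusted 0.42).

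Summed over the 4 Id genes, the level was 664, 716 and 707 CPM in control and 825, 898 and 867 CPM after neomycin, with no overlap. The sum was 1.24-fold higher (exact two-sided permutation test, p = 0.1, the smallest possible). It carries no length correction, and Id1 and Id3, which are part of it, did not pass with that correction. Id4 made up 11.6%, 12.0% and 11.4% of all Id counts in control and 9.97%, 9.13% and 9.04% after neomycin.

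**Figure D2:**
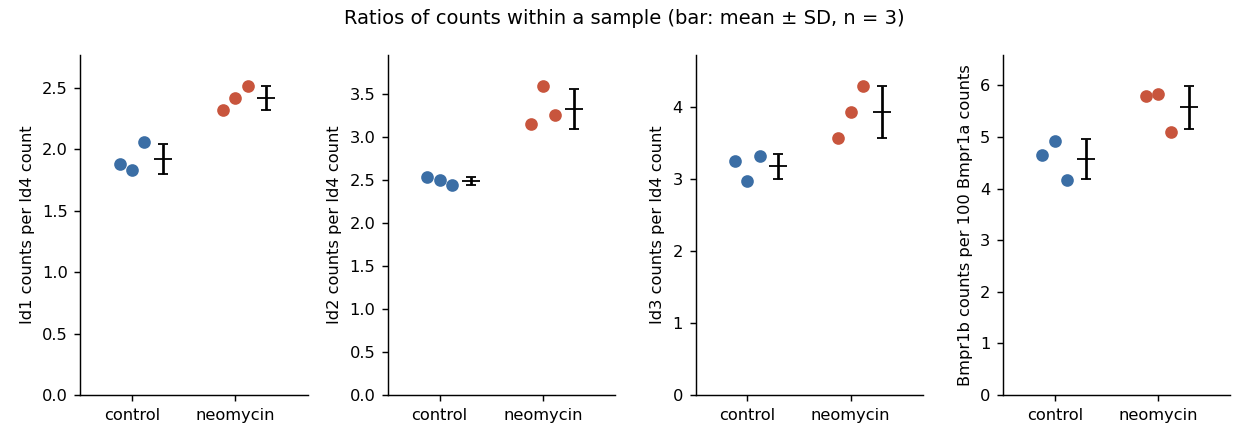
Ratios of counts within a sample (y axes, from 0) for Id1, Id2 and Id3 per Id4 count and for Bmpr1b per 100 Bmpr1a counts, as points for the 3 control and 3 neomycin samples with the mean ± SD. In all 4 panels the neomycin points lie above the control points.

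Per kilobase of exon, which allows levels of different genes to be compared, Id3 and Id1 were the most abundant of the 9 genes. In control, Id3 was at 143 ± 4.71 and Id1 at 134 ± 9.17 RPKM, the CPM divided by exon length in kilobases (SD, n = 3 each), and their samples overlapped. Id2 followed at 82.9 ± 4.86, Bmpr1a at 36.4 ± 1.17 and Id4 at 21.1 ± 1.23 RPKM. Smad6 was at 13.8 ± 1.36, Bmpr2 at 5.71 ± 0.987, Bmpr1b at 1.78 ± 0.20 and Smad9 at 0.988 ± 0.278 RPKM, and from Id2 downwards no neighbours in this order overlapped in control. After neomycin the order was the same, with Id3 at 177 ± 12.3 and Id1 at 169 ± 3.70 RPKM and their ranges again overlapping. The exon length of a gene is that of all its annotated exons together; with the longest transcript instead, Id3 was at 201, Id1 at 134 and Id2 at 103 RPKM in control.

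Bmpr1a, at chr14:34410734-34503341 on the minus strand, encodes a type I receptor found in most tissues and was the most abundant receptor of the 3 per kilobase. Its level was 227, 240 and 226 CPM in control and 204, 211 and 203 CPM after neomycin, so that all neomycin samples were below all controls. The mean was 231 ± 7.45 CPM in control and 206 ± 4.33 CPM after neomycin (SD, n = 3 each). The log2 fold change of -0.17 (SE 0.07, 95% interval -0.32 to -0.02) did not pass (adjusted p = 0.0904, edgeR), although its unadjusted p was 0.0329. With library totals in place of TMM it was -0.24 with an adjusted p of 0.0234, and with the length correction -0.07 with an adjusted p of 0.429 (edgeR). The antisense gene Gm17110 shares 290 exonic bases with Bmpr1a.

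Bmpr1b, at chr3:141837136-142169425 on the minus strand, encodes a type I receptor of more restricted expression. Its level was 10.6, 11.8 and 9.43 CPM in control and 11.8, 12.3 and 10.4 CPM after neomycin, and the groups overlapped. The log2 fold change was 0.12 (SE 0.12, 95% interval -0.15 to 0.38, adjusted p = 0.496, edgeR). Set against Bmpr1a, whose exons are of similar length, the samples separated: there were 4.65, 4.93 and 4.16 Bmpr1b counts per 100 Bmpr1a counts in control and 5.80, 5.84 and 5.10 after neomycin, a 1.22-fold increase (exact two-sided permutation test, p = 0.1, adjusted 0.175).

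Bmpr2, at chr1:59763400-59879014 on the plus strand, encodes the type II receptor particular to BMPs and has the longest exons of the 9 genes, at 17983 bp. Its level was 102, 121 and 85.1 CPM in control and 86.1, 86.5 and 96.4 CPM after neomycin. Control sample 3 was lower than all neomycin samples, whereas the other controls were higher. The log2 fold change was -0.20 (SE 0.11, 95% interval -0.43 to 0.04, adjusted p = 0.191, edgeR). Without control sample 3 it was -0.30 with an adjusted p of 0.0207, without control sample 2 it was -0.06 with an adjusted p of 0.709, and with the length correction it was 0.08 with an adjusted p of 0.55 (edgeR). Bmpr2 counts per 100 Bmpr1a counts were 44.3 ± 6.39 in control and 43.6 ± 3.41 after neomycin (SD, n = 3 each; exact two-sided permutation test, p = 1.0).

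Smad6, at chr9:63953076-64022059 on the minus strand, encodes an inhibitory SMAD that is itself induced by BMP and damps the signal. Its level was 46.3, 47.3 and 39.3 CPM in control and 44.4, 40.6 and 49.4 CPM after neomycin. The groups overlapped, and the log2 fold change was 0.02 (SE 0.09, 95% interval -0.19 to 0.22, adjusted p = 0.911, edgeR).

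Smad9, at chr3:54755582-54801257 on the plus strand, encodes the third receptor-regulated SMAD of the BMP branch, beside SMAD1 and SMAD5. It had the fewest reads, with 459, 290 and 208 counts in control and 259, 290 and 275 after neomycin, or 6.65, 5.56 and 3.70 CPM against 4.88, 4.91 and 5.12 CPM. The controls spread over a wider range than the neomycin samples, which all lay inside it. The fold was 0.935 with a 95% interval of 0.696 to 1.26 (adjusted p = 0.746, edgeR), which leaves room for changes within that interval. Smad9 counts per 100 Smad6 counts were 11.8 ± 2.48 in control and 11.1 ± 0.886 after neomycin (exact two-sided permutation test, n = 3 each, p = 0.8).

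Exon length moved with the fold change over all genes, and the 9 genes differ widely in length. Among 2452 genes with exons of up to 2 kb in sum, the median log2 fold change was 0.26 and 31.0% of genes were higher by the test. Id1 (1160 bp) and Id3 (1791 bp) belong to this group and stood at its 59.8th and 55.8th percentile. Among 4935 genes of 2 to 4 kb the median was 0.09 and 15.9% were higher; here Id2 (2438 bp) stood at the 88.9th percentile, Id4 (3849 bp) at the 36.9th and Smad6 (3205 bp) at the 39.9th. Bmpr1b and Smad9 stood at the 73.4th and 41.5th percentile of genes of 4 to 6 kb, whose median was -0.04. Bmpr1a stood at the 42.4th percentile of genes of 6 to 8 kb, and Bmpr2 at the 50.9th percentile of the 2649 genes over 8 kb, whose median was -0.20.

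**Figure D3:**
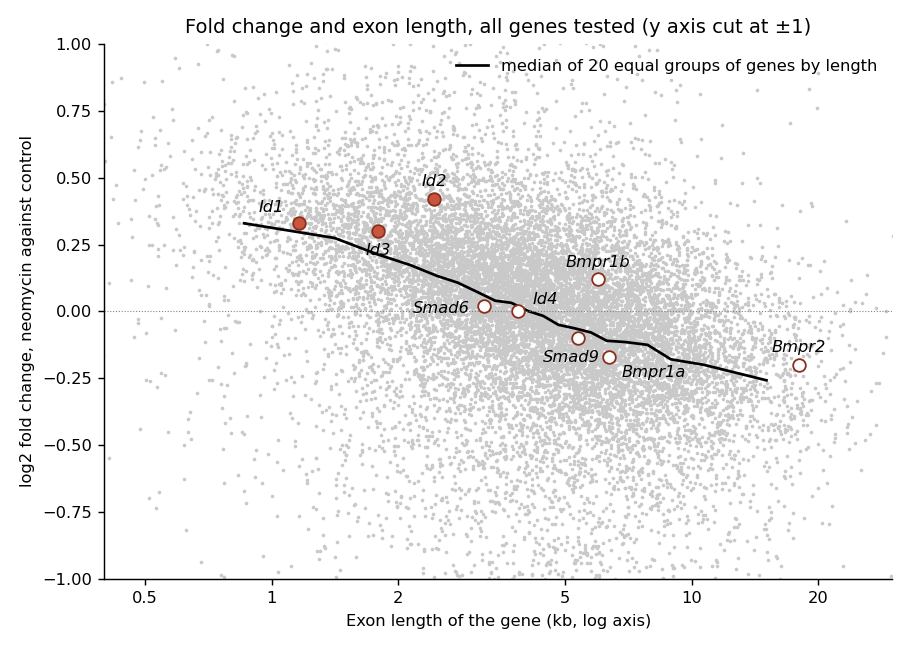
Log2 fold change (y axis, limited to ±1) against exon length in kb (x axis, log scale) for all genes tested (grey), with the 9 genes as large circles, filled where the adjusted p was under 0.05, and a line through the medians of 20 groups of genes of equal size. Id1, Id3, Id4 and Smad6 lie near the line, whereas Id2 and Bmpr1b lie above it.

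When the trend of fold change on length was removed within each sample, Id2 still passed the test and Id1 and Id3 did not. The log2 fold change of Id2 was 0.28 (adjusted p = 0.0187, edgeR), that of Id1 0.03 (adjusted p = 0.814) and that of Id3 0.09 (adjusted p = 0.306). Bmpr1a was at -0.07 and Bmpr2 at 0.08, and neither passed (adjusted p = 0.429 and 0.55, edgeR). With this correction 10.4% of all genes were higher and 13.1% lower at an adjusted p under 0.05. Whether length has a part in the differences of Id1 and Id3 was not tested beyond this correction.

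**Figure D4:**
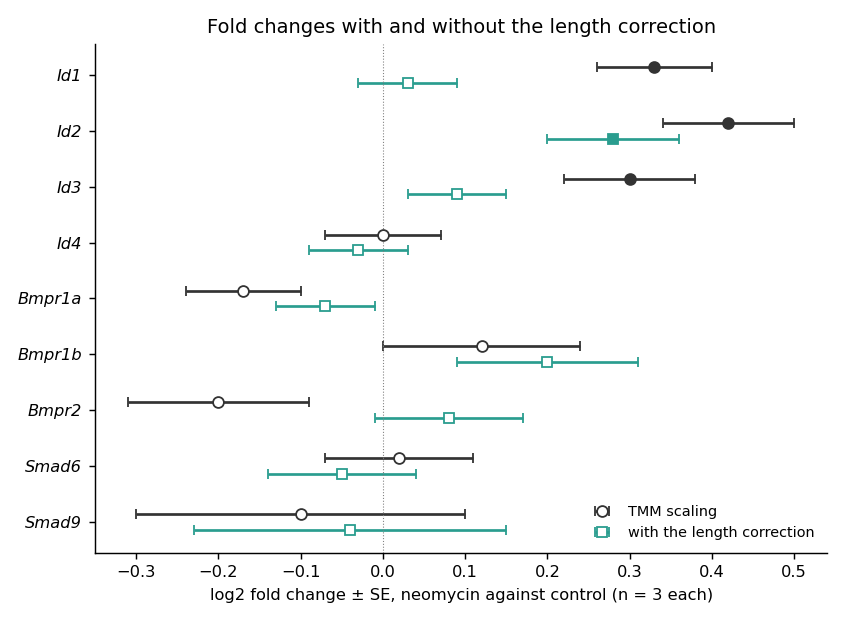
Log2 fold change ± SE (x axis; n = 3 samples in each group) of the 9 genes with TMM scaling (circles) and with the length correction (squares), filled where the adjusted p was under 0.05. Id1 moved from 0.33 to 0.03 and Id3 from 0.30 to 0.09, whereas Id2 moved from 0.42 to 0.28 and remained filled.

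Of the other genes of the pathway, 62 of 73 found in the table were tested; 8 rose and 13 fell at an adjusted p under 0.05, and 2 rose and 3 fell past the fold threshold. Among all genes, 12.9% rose and 16.1% fell by the first rule and 2.24% and 6.60% by the second. Without control sample 2, 11 of the pathway genes passed at an adjusted p under 0.05, and without neomycin sample 2, 13. Among the other BMP receptors and co-receptors, 10 genes were tested, 0 rose and 4 fell, with a median log2 fold change of -0.23; with the length correction 1 fell and the median was -0.15. Acvr1, another type I receptor, fell from 57.2 ± 4.58 to 45.9 ± 3.45 CPM (log2 fold change -0.32, adjusted p = 0.0142, edgeR). Rgmb, a co-receptor, fell from 25.2 ± 0.641 to 20.2 ± 1.69 CPM (log2 fold change -0.32, adjusted p = 0.0193, edgeR). Acvr1 did not pass without neomycin sample 2 (adjusted p = 0.0817, edgeR), nor did Rgmb with the length correction (adjusted p = 0.157, edgeR). Acvrl1, the type I receptor of endothelium, was at 10.8 ± 0.706 CPM in control and 8.02 ± 1.80 CPM after neomycin (adjusted p = 0.0559, edgeR).

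Of 13 SMAD genes and regulators, 0 rose and 4 fell, with a median of -0.13. Smad7, the other inhibitory SMAD, was at 36.5, 43.7 and 33.6 CPM in control and fell to 23.9, 25.0 and 27.3 CPM (log2 fold change -0.58, SE 0.10, adjusted p = 0.00184, edgeR). Its fold of 0.67 fell just short of the threshold, and with the length correction the log2 fold change was -0.56. Skil, a co-repressor of SMADs, fell from 60.1 ± 7.46 to 42.7 ± 3.05 CPM (log2 fold change -0.49, adjusted p = 0.00267, edgeR). The others that fell, Smurf1 and Smurf2, named after their values were seen, encode ubiquitin ligases that act on SMADs and receptors. The SMADs that carry the signal did not pass: Smad1 was at 103 ± 11.6 and 88.1 ± 11.3 CPM, Smad5 at 83.7 ± 4.06 and 89.4 ± 1.23 CPM, and Smad4 at 67.7 ± 0.572 and 62.0 ± 1.60 CPM in control and neomycin samples (adjusted p = 0.107, 0.32 and 0.157, edgeR). With the length correction Smad5 was at a log2 fold change of 0.22 and passed (adjusted p = 0.017, edgeR).

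Of 9 BMP ligands tested, 1 rose and 2 fell. Gdf6, a ligand known from joint and skeletal development, rose from 15.4, 15.8 and 18.7 CPM to 42.8, 39.3 and 39.5 CPM, or 2.44-fold (log2 fold change 1.29, SE 0.09, adjusted p = 2.66e-06, edgeR). Bmp2 fell from 16.8 ± 1.07 to 11.7 ± 0.894 CPM (log2 fold change -0.52, adjusted p = 0.00366), and Bmp7 from 181 ± 7.79 to 153 ± 8.35 CPM (log2 fold change -0.25, adjusted p = 0.0243, edgeR). Without neomycin sample 2 the adjusted p of Bmp7 was 0.113 (edgeR).

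Secreted antagonists and modulators moved in both directions, with 7 of 14 higher and 3 lower and a median of 0.27. With the length correction 5 were higher and 3 lower, and the median was 0.11. Chrd, which encodes chordin, rose from 8.82 ± 0.671 to 12.7 ± 0.885 CPM (adjusted p = 0.00545, edgeR). Crim1, a membrane protein that binds BMPs, fell from 92.0 ± 12.4 to 46.2 ± 4.71 CPM (log2 fold change -0.99, adjusted p = 3.92e-05, edgeR). Grem1 had 13, 15 and 26 counts in control and 0, 1 and 4 after neomycin (adjusted p = 0.0133, edgeR). Without neomycin sample 2 the adjusted p of Grem1 was 0.0627 (edgeR).

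Of 10 other transcription factors known to respond to BMP, 0 rose and 0 fell, with a median of -0.05. The groups did not overlap for 1 of the 10, beside 43.5% of all genes tested. With the length correction 1 of these factors passed, Gata2 (log2 fold change 0.34, adjusted p = 0.0266, edgeR), named after its value was seen. The bHLH partners of Id proteins did not pass either, with 0 of 6 tested. The E protein genes Tcf3, Tcf4 and Tcf12 had log2 fold changes of 0.13, 0.01 and -0.16 (adjusted p = 0.195, 0.908 and 0.116, edgeR). With the length correction Tcf4 was at 0.33 and passed (adjusted p = 0.0112, edgeR). Atoh1 was at 2.36, 2.17 and 2.42 CPM in control and 2.49, 2.44 and 1.81 CPM after neomycin (log2 fold change -0.05, SE 0.22, adjusted p = 0.90, edgeR).

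**Figure D5:**
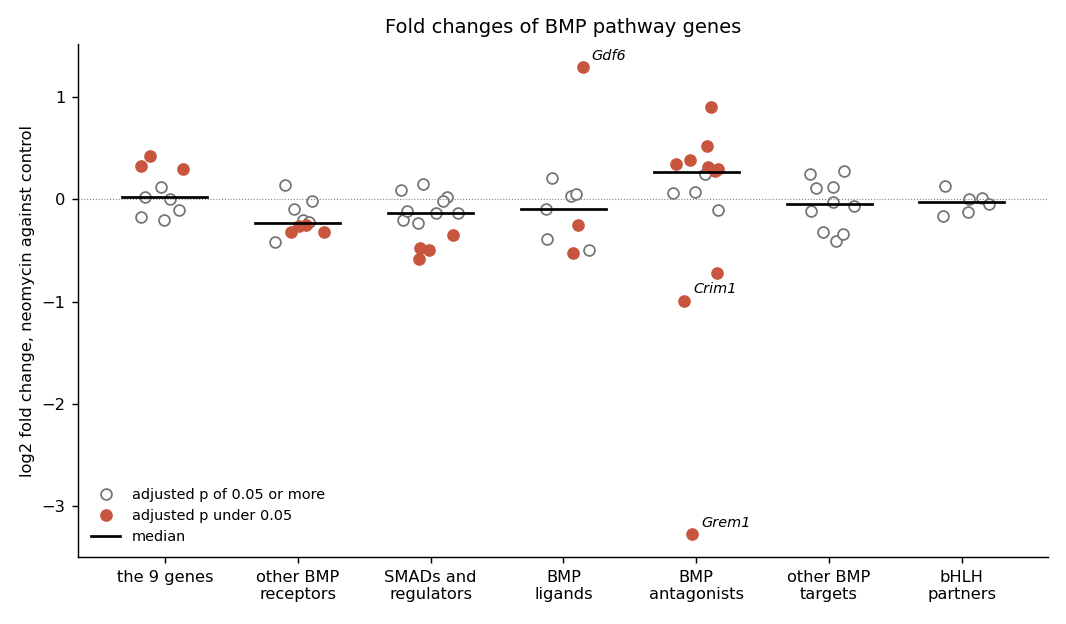
Log2 fold change (y axis) of the 9 genes and of 6 lists of BMP pathway genes, 1 point per gene, filled where the adjusted p was under 0.05, with a bar at the median of each list. The other receptors and the SMAD regulators have filled points below 0 only, and the antagonists have them on both sides.

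Markers of the cell types in the explants moved beside these values. Of 20 HC markers, 18 fell, and their summed level was 750 to 903 CPM in control and 173 to 217 CPM after neomycin; Myo7a fell from 27.2 ± 4.86 to 12.3 ± 1.20 CPM (adjusted p = 7.94e-05, edgeR) and Slc26a5, the motor protein of outer HCs, from 25.8 ± 2.33 to 1.61 ± 0.280 CPM (adjusted p = 9.4e-09). Atoh1, which also stands in that list, is not among the 18. Of 16 SC markers, 2 rose and 3 fell, and their sum was 4060 to 4400 CPM in control and 4830 to 5210 CPM after neomycin. The median difference of the list was 0.04 on the log2 scale. Of that sum S100a1, singled out for its size, held 1560 ± 216 and 2140 ± 126 CPM, and its log2 fold change of 0.46 was 0.08 with the length correction (adjusted p = 0.495, edgeR). Sox2 was at 79.3 ± 1.01 and 91.9 ± 9.40 CPM (adjusted p = 0.064, edgeR). Of 18 endothelial markers, 11 fell and 0 rose, with a median difference of -1.57 on the log2 scale. Pecam1 fell from 9.78 ± 2.79 to 1.49 ± 0.470 CPM (adjusted p = 2.66e-05, edgeR) and Cdh5 from 8.81 ± 0.807 to 2.12 ± 0.212 CPM (adjusted p = 3.99e-06, edgeR). The sum of that list was 388 to 443 and 362 to 414 CPM. Of that sum Emcn, also singled out for its size, held 252 ± 12.1 and 273 ± 26.2 CPM. Of 12 macrophage markers, 7 rose and 0 fell, with sums of 106 to 138 and 154 to 191 CPM, although Csf1r was at 6.68 ± 0.473 and 6.45 ± 0.227 CPM (adjusted p = 0.799, edgeR). The median difference of the macrophage list was 0.59 on the log2 scale. With the length correction 5 of these markers rose and 0 fell, beside 10.4% and 13.1% of all genes, and the median was 0.36.

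Sums of mesenchymal markers (7490 to 8090 and 7690 to 7980 CPM), Schwann cell markers (638 to 708 and 659 to 679 CPM) and neuronal markers (571 to 686 and 596 to 684 CPM) overlapped between the groups. Of the 12 markers in each of these lists, 2 rose and 4 fell in mesenchyme, 1 rose and 2 fell in Schwann cells, and 2 rose and 4 fell in neurons. The median differences of these lists were -0.13, 0.01 and -0.47 on the log2 scale. Of the neuronal sum Gata3, singled out for its size, held 253 ± 12.9 and 277 ± 25.4 CPM. Of the Schwann cell sum Sox10, also singled out for its size, held 355 ± 21.7 and 347 ± 1.95 CPM. Col1a1, a collagen gene of mesenchyme, fell from 27.1 ± 7.77 to 11.8 ± 0.955 CPM (adjusted p = 0.000469, edgeR), whereas Tubb3 of neurons did not pass (adjusted p = 0.143). The neuronal markers that fell, named after their values were seen, were Nefl, Nefm, Nefh and Snap25, with log2 fold changes of -1.15, -0.89, -1.21 and -1.01 (adjusted p = 0.000919, 0.00387, 0.0187 and 0.00206, edgeR). Nefh had groups that overlapped and did not pass without control sample 1 (adjusted p = 0.0852, edgeR). Pericyte and smooth muscle markers summed to 228 to 270 CPM in control and 186 to 199 CPM after neomycin, with 4 of 10 lower and 0 higher; Rgs5 did not pass (adjusted p = 0.865, edgeR). No marker of any list was at 0 in every sample. The part of these cell types in the levels of the Id genes, receptors and SMADs was not tested.

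Over the 6 samples, the genes with the pattern most like that of Id2 were 3830406C13Rik and Primpol, with a Pearson r of log2 CPM of 0.9981 and 0.9919. For Id1 they were Psma5 (0.9984) and Abracl (0.9977), and for Id3 Rpa3 (0.9981) and 0610037L13Rik (0.9980). These are descriptions among 10267 genes with a mean of at least 10 CPM. Since the samples form 2 groups, a gene that differs between them in the same direction can score high. Primpol itself did not pass the test (adjusted p = 0.185, edgeR). An r over 0.9 was found for 368 genes with Id2, 1540 with Id1 and 1443 with Id3.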

How the data were processed

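RNA-seq counts of 6 pools of cochlear explants were used, 3 control and 3 neomycin, grouped by the treatment field of the labels. The authors trimmed the reads, used HISAT2 for alignment to UCSC mm10 and HTSeq for counting by gene symbol; the deposited values are whole-number counts without normalization. The submitters' processing notes name CASAVA 1.8 and Trimmomatic 0.23. Strand setting and handling of reads with several matches are not given in the sources used here.

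Libraries were scaled with TMM, filtered with filterByExpr and tested with glmQLFTest in edgeR 4.0.16 (R 4.3.3), unpaired, with Benjamini-Hochberg adjustment over 15988 genes. Genes were called at a fold over 1.5 with an adjusted p-value under 0.05. Total counts were 50471116 to 66068108 per sample. The mean chi-square per gene showed that replicates differed by more than sampling noise, so none was counted as a repeat. Ratios and sums used exact permutation tests (scipy 1.17.1). Exon lengths and coordinates came from GENCODE M21, which matched 24027 of 24421 symbols and gave 99.2% of tested genes a length; the length correction removed a lowess trend (span 0.3) of each sample's log2 ratio. Promoters came from RefSeq.

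The 9 genes and the lists (other BMP receptors, SMADs and regulators, BMP ligands, BMP antagonists, other BMP target genes, bHLH partners, and markers of 8 cell types) were chosen with earlier results of these data known. From each pathway list, up to 2 rising and 2 falling genes with an adjusted p-value under 0.05 and the largest changes are named, with Acvrl1, Acvr1, Smad1, Smad5, Smad4, Smad7, Tcf3, Tcf4, Tcf12 and Atoh1 whatever their test, a few markers per cell type, and the 2 genes most correlated with each of Id1, Id2 and Id3. Some genes that this rule names are not reported here. Alternatives were DESeq2 1.42.0, limma-voom (limma 3.58.1), other scalings and filters, no fold threshold, a replicate block, the length correction and leaving out each sample; the correction on the longest transcript was added after the data were seen. On simulated counts of 15859 genes, edgeR recovered 167 of 200 genes changed 2-fold, with 3 false calls. That run held no trend on length and scored calls past the fold threshold. It therefore does not bear on smaller changes such as those of Id1, Id2 and Id3. Plots came from matplotlib 3.10.9 (Python 3.11.15).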

Additional observations from a re-analysis of the deposited data

How the results depend on the processing

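Values here are log2 fold changes unless counts are named. Id2 passed the test in all 17 alternatives (0.27 to 0.47), and Bmpr1b kept its direction in all 17 without passing. With the length correction, with it and the replicate block, and with it on the longest transcript, Id1 was at 0.03, 0.02 and 0.05, Id3 at 0.09, 0.09 and 0.05, Bmpr2 at 0.08, 0.08 and 0.14, and Smad6 at -0.05, -0.05 and -0.02; on the longest transcript Id4 was at 0.04, Bmpr1a at 0.02 and Smad9 at 0.07. Of the 9 genes, 3 passed the test without correction and 1 under each length correction. Id4, near 0 throughout, was at 0.00 with DESeq2, 0.00 with RLE size factors and 0.02 with upper quartile scaling. With library totals, Bmpr1a was at -0.24 and Smad6 at -0.05. With samples left out in turn, Id3 ran from 0.26 to 0.36, Id4 from -0.04 to 0.05, Bmpr2 from -0.30 to -0.06, Smad6 from -0.06 to 0.08 and Smad9 from -0.29 to 0.11; where control sample 1 was left out Smad9 turned to 0.11. With samples left out, pathway genes called ran from 3 to 6 (3 without control sample 2) and those with an adjusted p under 0.05 from 11 without control sample 2 and 13 without neomycin sample 2 to 20, against 21 with all samples; the other alternatives gave 18 to 26 of the latter. With no fold threshold, 3 of the 9 genes, 21 pathway genes and 4629 of all genes were called, against 0, 5 and 1413; DESeq2 called 1480. The causes of these shifts were not tested.

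The replicate numbers were not taken to pair the samples, since not every same-numbered correlation was over 0.1: deviations of same-numbered samples correlated at 0.165, 0.026 and 0.095 over 15988 genes, each neomycin sample correlated best with the control of its own number, and control sample 2 correlated best with neomycin sample 3 (0.032). With the replicate block, Bmpr1a was at -0.17 and passed (adjusted p = 0.031, edgeR), and 1465 genes were called. With 3 pools in each group, exact tests of single values cannot go below p = 0.1, and the 95% intervals leave room for changes of 10% or more in genes such as Id4 and Smad6.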
